A study of Temora longicornis with 12 samples.

Results

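Temperature history was the factor examined here in Temora longicornis, a planktonic copepod that lives in coastal seawater and takes its body temperature from it. All 12 libraries of the series were used. They were split by the temperature of the first 4 days of exposure, 17 °C in 6 libraries and 14 °C in the other 6. Each side holds both last-day temperatures, so the last 24 h entered the model as a second factor and only the effect of the first phase is described. The cool-first side is made of the control group, held at 14 °C throughout, and the acute group, moved from 14 °C to 17 °C for the final 24 h. The warm-first side is made of the sustained group, held at 17 °C after a gradual rise on the first day, and the recovery group, returned from 17 °C to 14 °C for the final 24 h. Every group had 3 libraries, total exposure was 120 h in each, and the vessels were dark and aerated. RNA came from whole adults, and their sex and reproductive state were not part of the labels used here. Values therefore mix all tissues, and a lower level in bulk RNA cannot be told apart from fewer cells of one type.

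Animals that follow the temperature of the water run faster metabolic reactions when it warms. Acclimation over days is known to shift the transcripts of energy metabolism, membranes, cuticle and reproduction, while chaperones of the heat shock family respond within hours. A contrast of first phases with the last day balanced asks which expression differences outlast, or build up before, the final 24 h. The deposited table names transcripts only by the identifiers of the assembly, which carry no gene name or function, so results are given by identifier. In such an identifier, c marks a component of overlapping sequences, g a gene within it and i a transcript (isoform) of that gene.

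The total count per library ran from 19559173 to 32504862 after a warm first phase and from 11582848 to 26630465 after a cool one. Without the single most abundant transcript the ranges were 14995732 to 23838612 and 8659487 to 19717695. The deeper sequencing of the warm-first side therefore came with a larger share of that transcript. Control replicate 2, a cool-first library and the shallowest, stood apart from the others. Its Spearman correlation with the other 11 libraries lay between 0.797 and 0.886, against 0.894 to 0.952 among those 11.

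No transcript passed the test for the first phase. Of 40943 transcripts tested with edgeR's quasi-likelihood test, 0 had a Benjamini-Hochberg adjusted p under 0.05 (0%), and the lowest adjusted p was 0.898. The unadjusted p was under 0.05 for 2196 transcripts (5.36%), of which 1114 were higher (2.72%) and 1082 lower (2.64%) after the warm first phase. DESeq2 made 19 calls among the 30853 transcripts it adjusted (0.0616%) and had 2897 below 0.05 before adjustment. limma voom with quality weights made 0 calls (0%) and had 2178 below 0.05 before adjustment. Scaling by library totals alone, in place of TMM factors, moved the median log2 difference of all transcripts from 0.01 to -0.31. The lower side then made up 97.3% of the transcripts at an unadjusted p under 0.05, against 49.3% with TMM. The signs below are relative to the TMM median.

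The typical first-phase difference was small and was best bounded in well expressed transcripts. Among the 7828 transcripts with a mean of 10 to 100 CPM (the count relative to the TMM-scaled library size), the median absolute log2 difference was 0.11 and the median SE was 0.15. The 95% interval lay within 2-fold in either direction for 91.8% of them. It did so for 92.6% of the 1129 transcripts at 100 CPM or more, for 72.2% of the 18975 at 1 to 10 CPM and for 15.7% of the 13011 under 1 CPM. For most transcripts under 1 CPM the interval thus allowed a 2-fold difference in at least one direction.

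**Figure D1:**
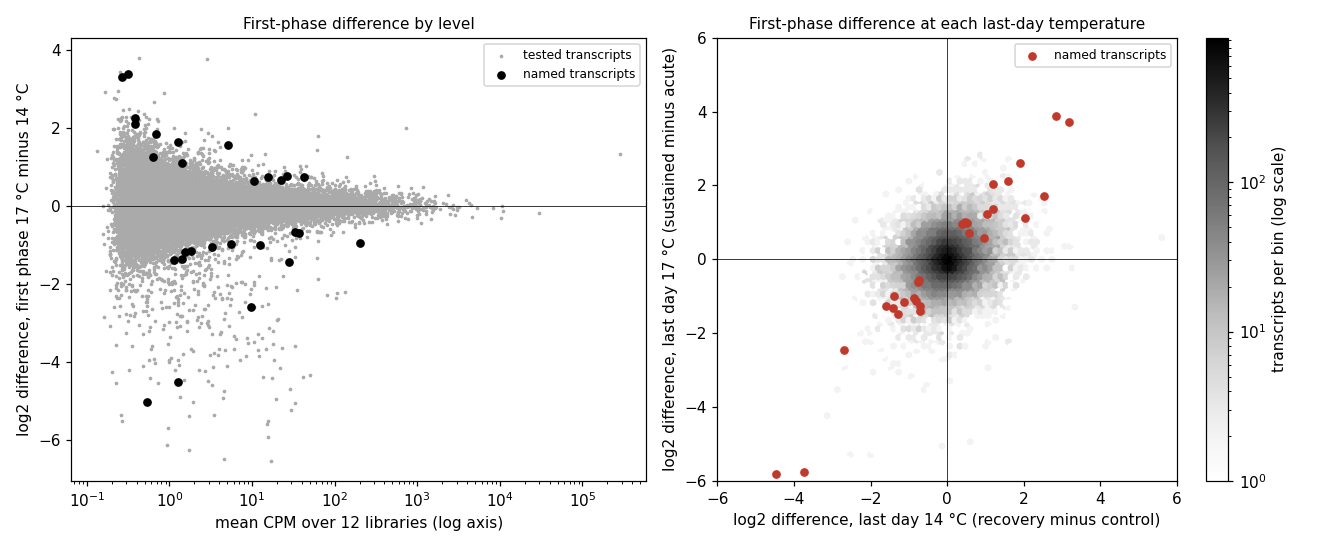
Left, the log2 difference between first phases for each of 40943 transcripts against its mean CPM (log axis). Transcripts named for their small unadjusted p are in black. Right, the same difference at a last day of 14 °C (x axis) and of 17 °C (y axis), as transcripts per bin, with those same transcripts in red. The cloud reaches further down than up on the left, with 231 estimates more than 4-fold lower and 43 more than 4-fold higher.

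More of the large estimates were lower than higher, by a margin that depended on the filter and the tool. After the warm first phase 231 transcripts were estimated at more than 4-fold lower and 43 at more than 4-fold higher, and of the 231 the mean was at least 1 CPM for 146, against 5 of the 43. Without the low-count filter the counts were 381 lower and 247 higher, in DESeq2 437 and 269, and in limma voom 161 and 68. The transcripts of the lower tail were not evenly high in the cool-first libraries. Their median level was 4.46 CPM in control replicate 2, 5.0 CPM in acute replicate 3, 2.75 CPM in acute replicate 1 and 0.519 CPM in control replicate 1. It was 0.117 CPM in control replicate 3 and 0.183 CPM in acute replicate 2. In the warm-first libraries the median was 0.0721 to 0.0987 CPM in 5 of them and 1.20 CPM in recovery replicate 2. Control replicate 3 and acute replicate 2 were thus near the warm-first level, and recovery replicate 2 was above it. Control replicate 3 and acute replicate 2 were the lowest pair of the cool-first libraries in 51.5% of the lower tail, compared with 6.75% of all transcripts tested. Within the cool-first side 179 of the 231 spanned more than 10-fold, which 3.98% of all transcripts did. The first-phase groups did not overlap in 3 of the 231, where 0.21% of all tested did not. Being chosen by the size of the estimate, the tail is described without a test. With any 1 library left out it held 208 to 423 transcripts on the lower side and 42 to 157 on the higher. The low-count filter was rerun each time, so 41795 to 42751 transcripts were tested in place of 40943. These counts thus do not show the part of the left-out library alone. The lower count was 353, 390, 423 and 351 without control replicate 1, control replicate 3, recovery replicate 2 and acute replicate 2. It was 208 without control replicate 2 and 210 without acute replicate 3.

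Transcripts whose 6 warm-first libraries all lay outside the range of the 6 cool-first libraries numbered 86 (0.21%). Of these 49 were higher (0.12%) and 37 lower (0.0904%) after the warm first phase. The higher ones had a median log2 difference of 1.20 and a median level of 0.692 CPM, and 30 of the 49 were estimated at more than 2-fold. The lower ones had a median log2 difference of -0.73 at a median level of 1.90 CPM, and 14 of the 37 were beyond 2-fold. None of the 1129 transcripts at 100 CPM or more was among the 86, and 4 of the 7828 at 10 to 100 CPM were. Scaling by library totals alone gave 4 higher and 288 lower, and leaving out 1 library gave 136 (control replicate 2) to 283 (recovery replicate 1) in all.

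The transcripts named next had the 10 smallest unadjusted p-values in each direction. None passed the adjustment (edgeR adjusted p = 0.898 for each), so their values describe these libraries, and a choice by smallest p favours large estimates. All 20 had the same sign at both last-day temperatures, which the choice by the combined effect made likely. A choice by smallest p also favours groups that do not overlap. Of the 10 higher ones, 8 had groups that did not overlap, and 6 had a mean under 1 CPM. Of the 10 lower ones, 3 had groups that did not overlap, and 1 had a mean under 1 CPM.

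**Figure D2:**
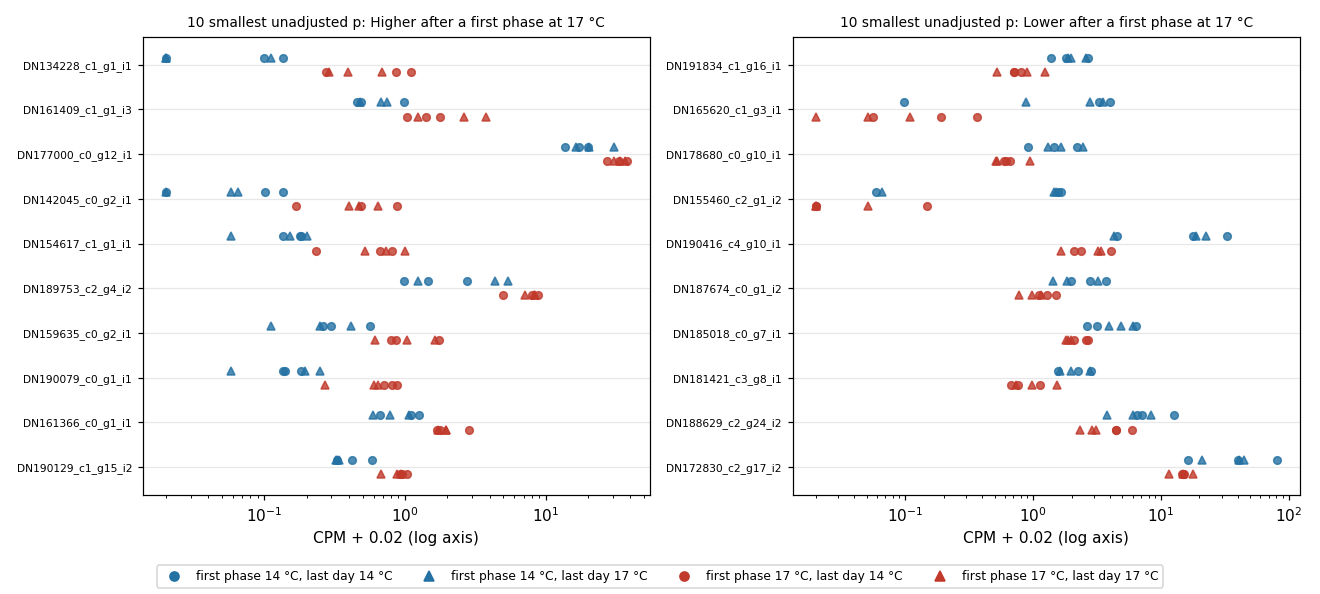
CPM plus 0.02 (log axis) in each of the 12 libraries for the 10 transcripts with the smallest unadjusted p on the higher side (left) and on the lower side (right). Points are libraries, blue for a cool and red for a warm first phase, circles for a last day at 14 °C and triangles for 17 °C. On the left 8 of 10 transcripts have separate colours, and on the right 3 of 10 do.

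Near-absence in cool-first animals marked the largest estimates on the higher side. TRINITY_DN134228_c1_g1_i1 lay at 0.257, 0.523 and 1.08 CPM (lowest, median and highest of 6) after the warm first phase and at 0, 0.0399 and 0.117 CPM after the cool one. Its counts were 6 to 30 in the warm-first libraries and 0 to 3 in the cool-first libraries, and the log2 difference was 3.40 ± 0.70 (SE). TRINITY_DN142045_c0_g2_i1 was at 0.148, 0.459 and 0.857 CPM against 0, 0.0419 and 0.117 CPM, a log2 difference of 3.31 ± 0.71. At such counts the fitted fold depends on the prior count. All 6 warm-first libraries were above all 6 cool-first libraries for both.

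TRINITY_DN161409_c1_g1_i3 was at 1.01, 1.57 and 3.72 CPM after the warm first phase and at 0.439, 0.563 and 0.972 CPM after the cool one, with a log2 difference of 1.64 ± 0.35. The groups did not overlap, and DESeq2 called it (adjusted p = 0.024) while edgeR did not (adjusted p = 0.898). TRINITY_DN190129_c1_g15_i2 had narrow groups that did not overlap, at 0.657, 0.912 and 1.01 CPM against 0.305, 0.315 and 0.567 CPM (log2 difference 1.28 ± 0.30). TRINITY_DN190129_c1_g15_i4, the other tested transcript of its gene, was at 4.49, 6.73 and 8.94 CPM against 4.38, 5.42 and 7.32 CPM (log2 difference 0.33 ± 0.20). The contrast in the minor transcript was thus not matched in size by the major one.

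TRINITY_DN189753_c2_g4_i2 was at 4.98, 8.15 and 8.78 CPM after the warm first phase and at 0.972, 2.1 and 5.42 CPM after the cool one. The groups overlapped only through recovery replicate 1, at 4.98 CPM, and acute replicate 1, at 5.42 CPM. Its log2 difference was 1.56 ± 0.35, with DESeq2 adjusted p = 0.02 and edgeR adjusted p = 0.898. The 4 other tested transcripts of that gene had log2 differences from -0.37 to 0.16, and the summed counts of the whole gene gave 0.15.

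A pair of transcripts of one gene had estimates of opposite sign. TRINITY_DN177000_c0_g12_i1 was at 27.4, 33.3 and 37.8 CPM after the warm first phase and at 13.6, 18.5 and 30.6 CPM after the cool one, a log2 difference of 0.77 ± 0.16. TRINITY_DN177000_c0_g12_i2 was at 12.7, 28.8 and 40.1 CPM against 24.1, 50.3 and 53.7 CPM, a log2 difference of -0.63 ± 0.26. Neither passed the adjustment with edgeR. Their summed counts differed little, with a log2 difference of -0.05 (edgeR adjusted p = 0.977 over genes).

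The share of TRINITY_DN177000_c0_g12_i1 in the counts of TRINITY_DN177000_c0_g12 was 24.2% in control replicate 1, 26.6% in control replicate 2 and 28.0% in control replicate 3. In the acute group it was 56.0% in replicate 1, 28.3% in replicate 2 and 24.9% in replicate 3. In the recovery group it was 45.1%, 51.5% and 74.9%, and in the sustained group 49.5%, 52.0% and 53.4%. Every warm-first library thus had a share of 45.1% or more, and every cool-first library except acute replicate 1 had 28.3% or less. Among libraries that ended at 14 °C, 3 against 3, the share was 45.1% or more against 28.0% or less. At a last day of 17 °C the first phases overlapped, at 49.5% to 53.4% against 24.9% to 56.0%. How many other genes separate at 3 against 3 is not given here. Among the 1911 genes with exactly 2 tested transcripts, at least 20 counts in each library and a mean of 10 CPM or more, this gene had the largest difference between first-phase medians, 24.5 percentage points. The median absolute difference over those genes was 1.53 points, and 1 gene exceeded 20 points. The first-phase groups of 6 libraries did not overlap in 9 of those genes, and TRINITY_DN177000_c0_g12 was not among them. This gene was looked at closely after its values were seen, so no test is attached. How reads matching both transcripts were counted is not known, so each level, and with it the share, is uncertain.

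**Figure D3:**
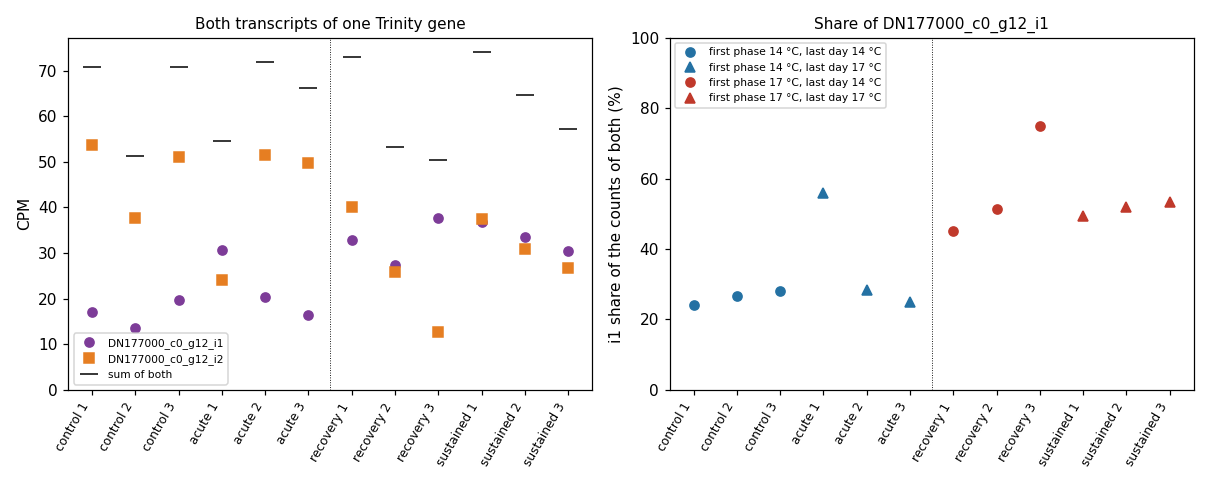
Left, CPM of both tested transcripts of TRINITY_DN177000_c0_g12 and their sum in each library, with cool-first libraries left of the dotted line and warm-first libraries right of it. Right, the share of the first transcript in the counts of both (%), coloured by first phase. The share is 28.3% or less in 5 of 6 cool-first libraries and 45.1% or more in all warm-first libraries.

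On the lower side TRINITY_DN191834_c1_g16_i1 had the smallest unadjusted p of the 40943 transcripts. It lay at 0.500, 0.738 and 1.21 CPM after the warm first phase and at 1.36, 1.90 and 2.67 CPM after the cool one, and the groups did not overlap. Its log2 difference was -1.36 ± 0.27, and it was -1.41 at a last day of 14 °C and -1.31 at 17 °C. The difference was -2.32 after thinning all libraries to one depth and -0.28 with counts summed by component. DESeq2 called it (adjusted p = 0.02). TRINITY_DN181421_c3_g8_i1 was also separate, at 0.649, 0.855 and 1.53 CPM against 1.56, 2.1 and 2.84 CPM (log2 difference -1.18 ± 0.28).

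TRINITY_DN190416_c4_g10_i1 was at 1.64, 2.78 and 4.07 CPM after the warm first phase and at 4.29, 18.2 and 33.0 CPM after the cool one. The groups did not overlap, although acute replicate 2 (4.29 CPM) and control replicate 3 (4.48 CPM) lay just above the highest warm-first library. Its log2 difference was -2.58 ± 0.51, with DESeq2 adjusted p = 3.7e-05. The estimate was -2.25 to -2.79 when any 1 library was left out, and the lowest edgeR adjusted p among those fits was 0.224.

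TRINITY_DN165620_c1_g3_i1 had counts of 82, 49 and 2 in the control group and 72, 19 and 80 in the acute group, against 0 to 7 in the warm-first libraries. At 3.27, 3.97 and 0.0778 CPM in the control libraries it overlapped the warm-first range through control replicate 3. The log2 difference was -4.51 ± 0.87, DESeq2 called it (adjusted p = 3.7e-05), and edgeR called it only without control replicate 3 (log2 difference -4.90, adjusted p = 0.017). TRINITY_DN155460_c2_g1_i2 followed the same libraries, with counts of 39, 20 and 1 in the control group, 39, 1 and 33 in the acute group and 0 to 3 in the warm-first libraries. Its log2 difference was -5.02 ± 1.07. Control replicate 3 and acute replicate 2, with 1 count each, lay within the warm-first counts.

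That division ran through the lower list. Control replicate 3 and acute replicate 2 were the lowest pair of the cool-first libraries for 5 of the 10 transcripts, and for 0 of the 10 on the higher side. Control replicate 2 was the highest cool-first library for 9 of the 10 lower ones and 2 of the 10 higher ones. Over all tested transcripts it was the highest for 9856 of 40943. Without control replicate 2 all 10 lower transcripts had smaller estimates, with a median log2 difference of -1.17 in place of -1.37. Leaving out any other library made 1 to 9 of the 10 smaller, with medians from -1.27 to -1.48. The list was chosen with control replicate 2 included, so smaller estimates without it were likely. The part of control replicate 2 in these values beyond this was not tested.

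The number of DESeq2 calls depended on single libraries. With each library left out in turn it called 1 to 200 transcripts. Without control replicate 2 it called 1 on the higher side and 0 on the lower side. The lower transcripts given above as DESeq2 calls were thus not called without that library. The count was 200 without recovery replicate 2, 111 without control replicate 3 and 50 without acute replicate 2. Of the 19 calls on all libraries, 19, 17 and 18 were among these. The count was 27 without control replicate 1 and 26 without recovery replicate 1. It was 2 to 12 without acute replicate 1 or 3, recovery replicate 3 or any sustained library. The number of transcripts adjusted also changed, from 30853 with all libraries to between 34314 and 44672. Control replicate 2 was the highest cool-first library for 10 of the 19, compared with 9856 of the 40943 transcripts tested with edgeR. The estimates of all 19 kept their sign in each of these fits. Of its 19 transcripts 17 were lower (0.0551%) and 2 higher (0.00648%) after the warm first phase, and 8 of the 19 are named here. The groups did not overlap in 4 of the 19, and 11 of the 17 lower ones spanned more than 10-fold within the cool-first side. The lowest cool-first library was control replicate 3 for 11 of the 17 and acute replicate 2 for 4. The same counts over all transcripts are not given here. In edgeR the same 19 had unadjusted p-values from 0.00015 to 0.011 and an adjusted p of 0.898.

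Related transcripts of 2 components recurred among the lower ones. The component TRINITY_DN172830_c2 held 5 tested transcripts in 4 genes, and all 5 were estimated lower after the warm first phase, with log2 differences from -0.95 to -3.68 and an unadjusted p under 0.05. Over all transcripts, 48.9% were estimated lower and 2.64% were lower at that p. The most abundant, TRINITY_DN172830_c2_g8_i1, was at 88.9, 138 and 173 CPM after the warm first phase and at 149, 252 and 397 CPM after the cool one (log2 difference -0.95 ± 0.24). TRINITY_DN172830_c2_g17_i2 was at 11.5, 14.9 and 17.8 CPM against 16.3, 40.2 and 80.7 CPM (log2 difference -1.44 ± 0.32, and -1.11 without control replicate 2). TRINITY_DN172830_c2_g22_i1 was at 0.546, 1.28 and 5.19 CPM against 0.623, 25.1 and 44.2 CPM (log2 difference -3.68 ± 0.96, and -3.41 without control replicate 2), and DESeq2 called it on all 12 libraries (adjusted p = 0.02).

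Summed over TRINITY_DN172830_c2, the level was 111 to 214 CPM in the warm-first libraries. It was 466, 493 and 185 CPM in the control libraries and 342, 242 and 543 CPM in the acute libraries. Control replicate 3 was the 1 cool-first library inside the warm-first range. The component TRINITY_DN185018_c0 held 6 tested transcripts, all estimated lower, 4 of them at an unadjusted p under 0.05. Its summed level was 33.1 to 48.7 CPM in the warm-first libraries, 50.7, 103 and 39.1 CPM in the control libraries and 81.1, 48.9 and 87.5 CPM in the acute libraries. Without control replicate 2 all 5 and all 6 were still estimated lower, with median log2 differences of -1.11 and -0.69, where they had been -1.44 and -0.86. The median cool-first sums were then 342 and 50.7 CPM in place of 404 and 65.9 CPM. Transcripts of a component share sequence and may share reads, so they are not independent of each other. Both components were picked because 2 of their transcripts were named. With counts summed by component, TRINITY_DN172830_c2 had a log2 difference of -1.16 and TRINITY_DN185018_c0 one of -0.84. Neither passed the adjustment (edgeR adjusted p = 0.829 over components for each), and no other test is attached.

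**Figure D4:**
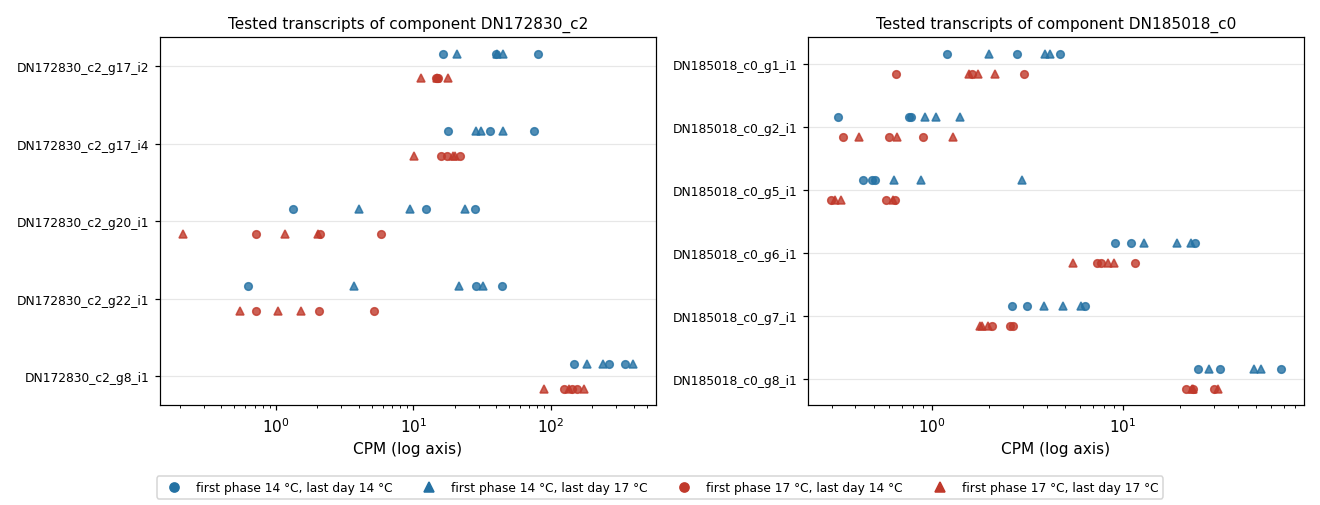
CPM (log axis) of each tested transcript of 2 assembly components in the 12 libraries, coloured by first phase and shaped by last day. Warm-first libraries lie mostly to the left, and the groups overlap in every transcript. In TRINITY_DN172830_c2 control replicate 3 is the lowest cool-first library for each transcript and lies inside the warm-first range. In TRINITY_DN185018_c0_g2_i1 the groups largely coincide, at 0.345 to 1.30 CPM (warm-first) and 0.324 to 1.41 CPM (cool-first).

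Among well expressed transcripts the differences were smaller. The 5 smallest p-values on the higher side at a mean of 10 CPM or more went to TRINITY_DN177000_c0_g12_i1 and to 4 transcripts with log2 differences of 0.65 to 0.74. TRINITY_DN183693_c3_g1_i1 was at 30.2, 51.2 and 72.0 CPM after the warm first phase and at 25.5, 28.6 and 44.2 CPM after the cool one (log2 difference 0.74 ± 0.20). TRINITY_DN170525_c1_g2_i3 was at 13.2, 19.6 and 24.4 CPM against 6.95, 10.5 and 17.6 CPM (0.74 ± 0.21). Values for TRINITY_DN193696_c0_g1_i1 were 17.6, 27.7 and 33.1 CPM against 10.8, 17.6 and 23.3 CPM (0.68 ± 0.20). All of these groups overlapped.

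On the lower side TRINITY_DN173231_c1_g1_i2 was at 19.6, 29.1 and 36.6 CPM after the warm first phase and at 34.0, 46.7 and 53.1 CPM after the cool one, a log2 difference of -0.69 ± 0.17. A single cool-first library, acute replicate 2 at 34.0 CPM, lay inside the warm-first range. TRINITY_DN173231_c1_g1_i1, the other transcript of that gene, had a log2 difference of -0.68 ± 0.29. TRINITY_DN189981_c2_g1_i1 was at 18.4, 26.1 and 33.0 CPM against 26.0, 41.7 and 50.1 CPM (-0.65 ± 0.16). The 95% interval for TRINITY_DN173231_c1_g1_i2 ran from -1.05 to -0.33.

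The remaining named transcripts lay between these. TRINITY_DN154617_c1_g1_i1, TRINITY_DN159635_c0_g2_i1, TRINITY_DN190079_c0_g1_i1 and TRINITY_DN161366_c0_g1_i1 had log2 differences of 2.26, 1.86, 2.12 and 1.12, in groups that did not overlap. TRINITY_DN190320_c0_g1_i1 had 0.65. TRINITY_DN178680_c0_g10_i1, TRINITY_DN187674_c0_g1_i2, TRINITY_DN185018_c0_g7_i1, TRINITY_DN185018_c0_g6_i1 and TRINITY_DN188629_c2_g24_i2 had log2 differences of -1.39, -1.14, -1.06, -0.99 and -0.97, in groups that overlapped.

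The most abundant transcript, TRINITY_DN157064_c6_g3_i1, took a mean of 31.6% ± 18.8 of the counts after the warm first phase and 15.7% ± 12.5 after the cool one (SD, n = 6). The warm-first libraries ran from 7.04% to 53.1%. The cool-first libraries ran from 0.00387% to 26.0%, with control replicate 3 and acute replicate 1 at 0.00387% and 0.00986%. The difference of 15.9 percentage points was 22.8 at a last day of 14 °C and 8.98 at 17 °C. It had a two-sided exact permutation p of 0.105 when first-phase labels were permuted within each last-day temperature (0.17 adjusted over 3 measures). The smallest p this design allows is 0.005.

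**Figure D5:**
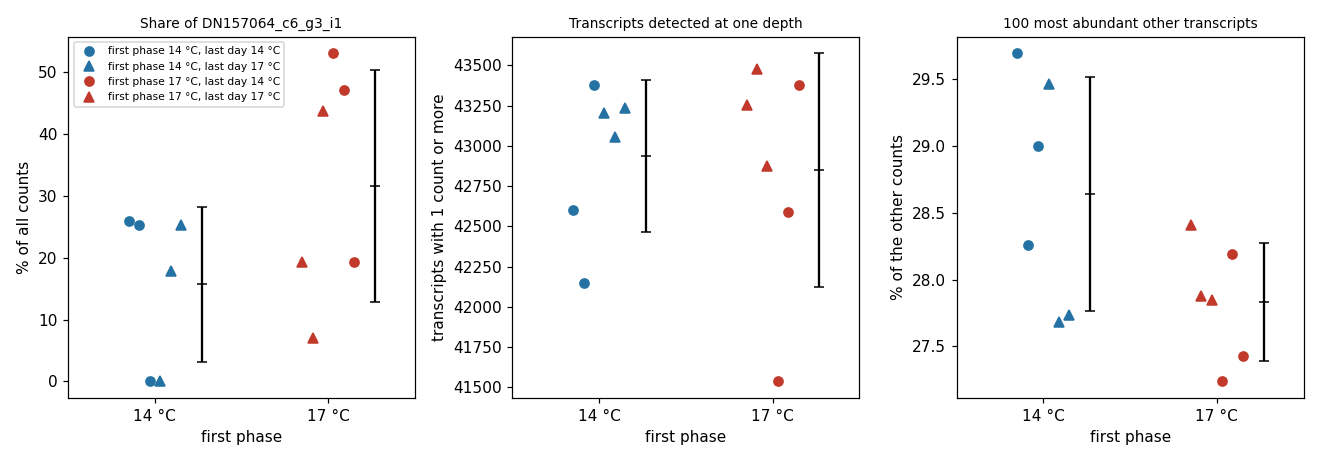
Measures per library by first phase, with each library as a point (circles for a last day at 14 °C, triangles for 17 °C) and the mean ± SD of 6 libraries beside them. From left to right they are the share of the most abundant transcript in all counts (%), the number of transcripts with at least 1 count at one depth and the share of the 100 most abundant other transcripts (%). The groups overlap in each.

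The breadth and concentration of expression gave no difference past the threshold. After thinning to 11582848 counts, 42851 ± 725 transcripts were detected after the warm first phase and 42937 ± 469 after the cool one (exact permutation p = 0.83, two-sided). Counting transcripts with at least 5 counts, the means were 35337 and 36816 (exact permutation p = 0.205). With the most abundant transcript left out before thinning, a choice made after seeing the data, the means were 43154 and 42780 and the difference turned to 373.5 in favour of the warm first phase (exact permutation p = 0.055). The 100 most abundant other transcripts held 27.8% ± 0.443 of the other counts against 28.6% ± 0.871 (exact permutation p = 0.115, two-sided). Over the whole transcriptome the first phase accounted for 11.3% of the variation in log2 CPM, where permuted labels gave 9.19% on average (pseudo-F = 1.26, exact permutation p = 0.13, one-sided). Without control replicate 3 that p was 0.04. Without any other single library it was 0.075 to 0.345, and 0.25 without control replicate 2.

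The first-phase effect was then read at each last-day temperature, in pairs of groups that share no library. At a last day of 14 °C (recovery minus control) edgeR called 0 of 40943 transcripts (0%) and 1302 (3.18%) had an unadjusted p under 0.05. DESeq2 called 1 of the 44766 transcripts it tested and limma voom 0 of 40943. How many of the 44766 DESeq2 kept for adjustment is not given here. At a last day of 17 °C (sustained minus acute) edgeR called 0 (0%) and 2044 (4.99%) had an unadjusted p under 0.05, while DESeq2 called 23 of 44766 and limma voom 0. Without control replicate 2, which is in neither of these groups but enters the filter and the shared spread, edgeR called 1. For the difference between both effects there were 0 calls from edgeR (0%), 6 of 44766 from DESeq2 and 0 from limma voom. In edgeR 1184 (2.89%) had an unadjusted p under 0.05.

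Transcripts picked at one last-day temperature were followed at the other. The 200 with the smallest p on the higher side at 14 °C had the same sign at 17 °C in 69% of cases, with a median log2 difference of 0.32, where 49.3% of all transcripts were higher and the median was -0.01. The 200 on the lower side had the same sign in 60.5%, with a median of -0.17, where 50.7% of all transcripts were lower. In the other direction the shares were 72.5% (median 0.20) for the higher and 64% (median -0.17) for the lower list, where 52.2% of all transcripts were higher and 47.8% lower. These shares depended on single libraries. They were 35.5% to 48% without recovery replicate 3, 45.5% to 59.5% without control replicate 2 and 51% to 55% without acute replicate 3. Without recovery replicate 2 they were 66.5% to 83.5%.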

How the data were processed

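The authors deposited raw read counts per assembled transcript for 12 libraries, which total 11582848 to 32504862 counts each. HTSeq 0.6.1, edgeR, TopHat2 2.1.1 and Trim Galore 0.4.1 are listed, without role or order, in the submitters' processing notes. For the assembly and the counting options, the sources used here say nothing. No replicate libraries were alike within sampling noise.

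Counts were tested with edgeR 4.0.16 in R 4.3.3 (quasi-likelihood, robust, TMM, default low-count filter with minimum count 10, Benjamini-Hochberg over 40943 of 44985 transcripts, threshold 0.05), with additive terms for first phase and last day and 9 residual degrees of freedom. A fit of 4 group means gave the effects at each last day. SEs are the log2 difference over the square root of F. Library measures were tested by exact permutation within last-day temperature (400 assignments). Libraries were treated as the replicates, 3 per group where 4 vessels per group are recorded. Which vessel a library came from is not given here. DESeq2 1.42.0, limma 3.58.1, other scalings, filters, summed counts, thinning and leaving out each library were alternatives. Measures and plots used Python 3.11.15, SciPy 1.17.1 and matplotlib 3.10.9.

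The split of libraries, the named transcripts' rule and TRINITY_DN157064_c6_g3_i1 and TRINITY_DN165620_c1_g3_i1 were chosen with earlier results of these data known. The rule named transcripts with an adjusted p under 0.05 (none), the 10 smallest unadjusted p in each direction, and the 5 smallest in each direction at a mean of 10 CPM or more. The test was checked on simulated data with known changes between first phases, in transcripts with a mean of at least 1 CPM. It recovered 2% of 50 changes of 1.5-fold and 30% of 50 changes of 2-fold. For 4-fold and 8-fold changes it recovered 84% and 98%, and it made 3 false calls. Most changes of 2-fold or less were thus missed there. The simulated counts were drawn independently for each library, with no last-day effect and no library set apart as control replicate 2 was. The recovered shares need not hold for the real libraries.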

Additional observations from a re-analysis of the deposited data

Results flagged for a closer look

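In 5 of 64 sets of 6 libraries, 1 library stood off from the rest by more than Dixon's 95% critical value allows (the gap to the next library as a share of the range in log2 CPM), which chance gives in about 1 in 20 sets. Acute replicate 1 was low for TRINITY_DN154617_c1_g1_i1 (gap 0.636 of the range, 0.0382 CPM against 0.117 CPM for the next cool-first library). Recovery replicate 1 was low for TRINITY_DN189753_c2_g4_i2 (gap 0.639, 4.98 against 7.16 CPM) and high for TRINITY_DN161366_c0_g1_i1 (gap 0.714, 2.81 against 1.93 CPM). Sustained replicate 1 was low for TRINITY_DN190079_c0_g1_i1 (gap 0.674, 0.250 against 0.588 CPM). Recovery replicate 2 was high for TRINITY_DN155460_c2_g1_i2 (gap 0.660, 0.129 against 0.0313 CPM, from counts of 3 and 1).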

How the results depend on the processing

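No paired analysis was possible because the labels give no replicate numbers shared between groups. For the first phase DESeq2 called 19 transcripts, limma voom 0 and edgeR 0 under each setting except without control replicate 3, which gave 1 (range 0 to 1 with 1 library left out). DESeq2 called 1 to 200 with a library left out. The count at an unadjusted p under 0.05 was 5533 with library totals alone, 1189 with counts summed by component, 1711 after thinning and 1653 to 2964 with 1 library left out. At a last day of 14 °C DESeq2 called 1 and edgeR 0 with any library left out. At 17 °C DESeq2 called 23, and edgeR 0 to 1 with a library left out, the 1 without control replicate 2. For the difference between last days DESeq2 called 6, and edgeR 0 with any library left out. Transcripts whose groups do not overlap numbered 292 with library totals alone and 136 to 283 with a library left out, where fewer libraries make separation easier. With a library left out the low-count filter was rerun, and edgeR tested 41795 to 42751 transcripts. Estimates over 4-fold lower numbered 381 without the low-count filter, 437 in DESeq2, 128 by component and 208 to 423 with a library left out. Those over 4-fold higher numbered 247, 269 and 32 in the same settings, 22 with library totals alone, 6 with a filter of 1 CPM in 3 libraries, 28 after thinning, 68 in limma voom and 42 to 157 with a library left out. The p for library distance was 0.04 to 0.345 with a library left out, and past 0.05 only without control replicate 3. The difference in transcripts detected ran from -305.75 to 155.25 with a library left out, and was 81.5 with control replicate 3 left out, 155.25 with recovery replicate 1 left out, 373.5 without the largest transcript and -1479 at a minimum of 5 counts. The difference in the share of the largest transcript was 10.8 to 21.0 points, and in the share of the 100 others -0.99 to -0.51. Of 29 named transcripts, 2 changed sign: TRINITY_DN177000_c0_g12_i1 with counts summed by gene (-0.051) or component (-0.023), and TRINITY_DN189981_c2_g1_i1 by component (0.12). None did with a library left out. Summing by component, the counts without overlap, the counts over 4-fold, detection without the largest transcript and DESeq2 with libraries left out were chosen after seeing the data. Under 1 CPM few intervals lay within 2-fold. The cause of the other shifts was not tested.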
